A study of Mus musculus with 14 samples.

Results

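Bile secretion and solute transport by cholangiocytes, the epithelial cells of the bile ducts, was followed through 9 genes chosen by name from 20377 gene symbols: Sctr, Cftr, Slc4a2, Itpr3, Ano1, Gpbar1, Aqp1, Slc10a2 and Slc5a1. All 9 were in the table with a single transcript row each. Of these, 8 passed the filter of at least 1 RPKM in at least 4 libraries, as did 12638 symbols in all, and Gpbar1 did not. RPKM, the read count of a transcript scaled by its length and by the size of the library, is a level per length and can be compared between genes within a library.

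RNA was sequenced from cells of adult C57BL/6 mice, chimeric animals in which mature hepatocytes bore a red fluorescent label. All groups, hepatocytes included, came from livers injured over 5 to 8 weeks by DDC, a porphyrin-inducing compound given at 0.1%, so no uninjured group enters any comparison. Ductal cells of both kinds were positive for the duct antigen MIC1-1C3, negative for CD11b, CD26, CD31 and CD45, and low in side scatter. Those with the red protein mTomato are labelled donor hepatocyte-derived ductal cells (5 libraries), and those without it are labelled host cholangiocyte-derived ductal cells (also 5). These groups are called hepatocyte-derived cells and cholangiocyte-derived cells below. The remaining 4 libraries are hepatocytes, and their gate is not given in the sources used here. The origin of a ductal cell rests on the red label alone, and the share of host hepatocytes without the label is not given in the sources used here.

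In the duct, secretin binds its receptor on the basolateral side of the cholangiocyte and raises cyclic AMP, which opens the apical chloride channel CFTR. Chloride that leaves through CFTR is exchanged for bicarbonate by the anion exchanger AE2, and water follows through aquaporins. A parallel route runs through nucleotides in bile, inositol trisphosphate (IP3) receptors and calcium to the calcium-activated chloride channel ANO1, while other apical carriers take bile acids and glucose back from bile.

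The labelled cell types were checked against marker genes. All 10 biliary markers were higher in both ductal groups than in hepatocytes, and their summed level was 17076 to 19852 RPKM in hepatocyte-derived libraries, 20651 to 22287 in cholangiocyte-derived ones and 613 to 1429 in hepatocytes. The 10 hepatocyte markers summed to 5696 to 10883, 3413 to 4912 and 50058 to 69192 RPKM in the same order. Transcripts of other cells stood apart in 3 libraries. Hepatocyte library 118 held macrophage markers at 1479 RPKM (11 genes, Lyz2 the most abundant) against at most 41.6 in the other hepatocyte libraries, and endothelial markers at 221 against at most 15. Stellate and fibroblast markers reached 435 and 504 RPKM in cholangiocyte-derived libraries 118 and 220, against 37.1 to 87.3 in the other 3 of that group and at most 31.0 in hepatocyte-derived libraries. Values without these 3 libraries are given where they change a call. Depth, estimated from the values, ranged from 23800000 to 33300000 reads. In bulk samples, fewer cells of a type and less RNA per cell cannot be told apart.

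Against hepatocytes, 6 of the 8 tested genes were higher in hepatocyte-derived cells and none was lower: Sctr, Cftr, Slc4a2, Itpr3, Ano1 and Slc5a1. The background of that comparison is high, since 66.2% of all 12638 tested genes were called higher and 14.8% lower. The same 6 genes were higher in cholangiocyte-derived cells than in hepatocytes, with none lower, beside 67.1% and 17.4% of all genes. Between the ductal groups, 4 genes (Sctr, Cftr, Itpr3 and Ano1) were lower in hepatocyte-derived than in cholangiocyte-derived cells and none was higher, beside 21.0% of all genes called lower and 15.1% higher. That balance of all genes turned round after quantile normalization, from 1913 higher and 2657 lower to 3017 higher and 2317 lower, while the calls of these 4 genes did not change. Calls are limma adjusted p-values under 0.05.

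The size of the changes sets these genes apart from the background only as a description. Their median difference on the log2(RPKM + 1) scale was 2.04 for hepatocyte-derived cells against hepatocytes, where all tested genes had a median of 0.67. It was 3.47 for cholangiocyte-derived cells against hepatocytes (all genes 0.76) and -0.89 between the ductal groups (all genes -0.03). Rescaling the libraries by their median ratios brings the positive medians of all genes near 0 by construction (0.01 and 0.05). It therefore cannot tell which scaling is right. After that rescaling the 6 genes remained called higher in both ductal groups, by 3.38 (Sctr), 3.12 (Cftr), 0.43 (Slc4a2), 1.47 (Itpr3), 1.65 (Ano1) and 3.06 (Slc5a1) in hepatocyte-derived cells. Values did not overlap between groups for any of these calls except Ano1 in hepatocyte-derived cells against hepatocytes. Non-overlap with higher values was seen for 59.9% and 60.5% of all genes in the comparisons with hepatocytes, and with lower values for 20.4% between the ductal groups.

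**Figure D1:**
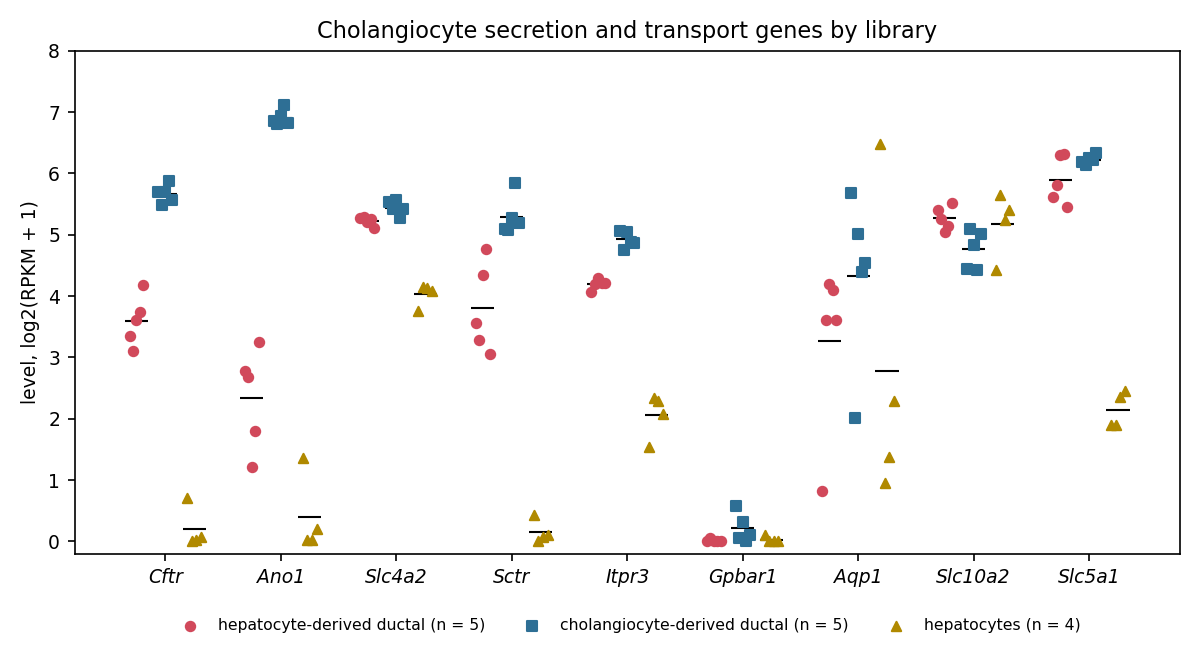
Level of the 9 genes in each library as log2(RPKM + 1); points are libraries, coloured by group (5 hepatocyte-derived, 5 cholangiocyte-derived, 4 hepatocyte), and bars are group means. Cftr, Ano1, Sctr and Itpr3 form 3 steps from hepatocytes to cholangiocyte-derived cells, with one overlap for Ano1 at the lower step, while Slc10a2 and Aqp1 overlap across groups and Gpbar1 lies near 0.

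The promoters of 3 of these genes are shown because the genes mark the extremes of the data: Cftr and Ano1 are near 0 in most hepatocyte libraries, and Slc10a2 is above 20 RPKM in every library. The sequences are the 250 bases before the annotated start, 5′ to 3′ on the strand of the gene, from RefSeq on GRCm38.p6. That build differs from the mm9 build of the expression table. RefSeq promoters were matched by symbol for 8 of the 9 genes, Sctr being the exception. Capitals mark matches on either strand to GGGCGG (the GC box), GTTAAT (a half-site of the liver and biliary factor HNF1) or AACAAT (a SOX motif). The CCAAT box (CCAAT), the TATA box (TATAAA), a TEAD motif (GGAATG) and the cyclic AMP response element (TGACGTCA) were also searched on both strands and had no match in the promoters of the 8 genes.
Cftr promoter, chr6:18170437-18170686, plus strand: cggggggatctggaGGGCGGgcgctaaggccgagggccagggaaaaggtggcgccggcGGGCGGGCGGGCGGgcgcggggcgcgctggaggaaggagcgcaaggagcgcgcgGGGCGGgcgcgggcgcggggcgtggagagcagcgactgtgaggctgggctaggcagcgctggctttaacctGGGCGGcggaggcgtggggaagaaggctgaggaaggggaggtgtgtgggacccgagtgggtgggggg
Ano1 promoter, chr7:144738574-144738823, minus strand: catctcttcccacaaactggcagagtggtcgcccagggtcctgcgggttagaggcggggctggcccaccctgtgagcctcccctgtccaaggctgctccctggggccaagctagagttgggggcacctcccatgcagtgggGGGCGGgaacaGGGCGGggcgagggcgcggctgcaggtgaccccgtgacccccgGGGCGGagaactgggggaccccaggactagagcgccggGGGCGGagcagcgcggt
Slc10a2 promoter, chr8:5105288-5105537, minus strand: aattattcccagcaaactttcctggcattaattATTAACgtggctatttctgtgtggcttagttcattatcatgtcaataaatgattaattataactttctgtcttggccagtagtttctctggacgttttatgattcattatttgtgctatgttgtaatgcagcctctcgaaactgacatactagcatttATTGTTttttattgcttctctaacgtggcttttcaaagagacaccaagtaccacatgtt
The Cftr window is 76.4% G or C with 30 CpG dinucleotides and 6 GC boxes, of which those starting at positions -192, -188 and -184 from the start overlap. The Ano1 window is 72.0% G or C with 16 CpG and 4 GC boxes. The Slc10a2 window is 34.4% G or C with 4 CpG, no GC box, 1 HNF1 half-site (read on the reverse strand as ATTAAC, at -217) and 1 SOX motif (ATTGTT, at -59). Among 32851 mouse promoter windows of this length, 32.7% hold a GC box, 6.43% the HNF1 half-site and 9.42% the SOX motif. A match is a description of letters and not a measured site.

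Library values are listed below in a fixed order: 219, 220, 225, 248 and 611 for hepatocyte-derived cells, 118, 219, 220, 225 and 611 for cholangiocyte-derived cells, and 118, 225, 248 and 611 for hepatocytes. Positions are in mm9. Differences are log2(RPKM + 1) with their standard error (SE) and limma adjusted p over all tested genes, and a fold is a ratio of mean RPKM. The labels do not say that the libraries of a group came from separate mice, so p-values measure only the spread between these samples.

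Sctr encodes the secretin receptor, a G protein-coupled receptor that in the liver is known from cholangiocytes (NM_001012322, chromosome 1, 121903557 to 121960109, plus strand). Its level was 10.85, 8.71, 19.34, 26.24 and 7.28 RPKM in hepatocyte-derived libraries. In cholangiocyte-derived libraries it was 33.02, 32.77, 37.63, 56.73 and 35.57. Hepatocytes had 0.35, 0, 0.05 and 0.08. The ductal groups did not overlap, since the highest hepatocyte-derived value (library 248) lay under the lowest cholangiocyte-derived one. The receptor transcript was 3.65 higher in hepatocyte-derived cells than in hepatocytes (SE 0.297, adjusted p = 3.92e-08) and lower than in cholangiocyte-derived cells (difference -1.49, SE 0.28, adjusted p = 0.000684), a mean of 14.5 ± 8.07 against 39.1 ± 10 RPKM (SD, 5 libraries each). No fold is given against hepatocytes, since library 118 carried most of their mean.

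Cftr, the cyclic AMP-gated chloride channel of the apical membrane, rose in the same order (NM_021050, chromosome 6, 18120687 to 18272769, plus strand). Hepatocyte-derived ductal libraries had 9.15, 7.64, 11.24, 12.43 and 17.04 RPKM. Cholangiocyte-derived ones had 50.65, 43.63, 50.59, 57.51 and 46.53. Hepatocytes had 0.64, 0, 0.02 and 0.05, about 107 estimated reads in library 118 and at most 8.10 in each of the others. All 3 groups were separate. Cftr was 3.39 higher in hepatocyte-derived cells than in hepatocytes (SE 0.195, adjusted p = 1.24e-09), and cholangiocyte-derived cells exceeded hepatocyte-derived ones 4.33-fold (difference -2.06, SE 0.184, adjusted p = 7.1e-07). The spread within each ductal group was small beside that step, at 11.5 ± 3.61 and 49.8 ± 5.23 RPKM (SD).

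The gene on the 5′ side of Cftr had nearly the same values, a feature picked out after its values were seen. Asz1, a gene known from germ cells and transcribed from the opposite strand (chromosome 6, 18000964 to 18059061), lies 61625 nt from Cftr and does not overlap it. Its mean level was 9.89, 44.5 and 0.107 RPKM in hepatocyte-derived cells, cholangiocyte-derived cells and hepatocytes, beside 11.5, 49.8 and 0.178 for Cftr. Asz1 was lower in hepatocyte-derived than in cholangiocyte-derived cells (difference -2.11, adjusted p = 1.1e-06). On the other side, Cttnbp2, 43707 nt away, had 0.964, 14.9 and 0.045 RPKM. Further out, St7 was at 11, 11.1 and 6.83 RPKM and Wnt2 below 1 RPKM on average in each group. Among all tested genes, those whose pattern over the 14 libraries was most like Cftr were Igsf9 (Pearson r = 0.998 on the log scale), Asz1 (0.997) and Ptgfrn (0.997), a description in which the libraries of a group share their group level.

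Slc4a2 encodes AE2, the chloride-bicarbonate exchanger that completes the secretin response (NM_009207, chromosome 5, 23931050 to 23946765, plus strand). Unlike the receptor and the channel, it was present in hepatocytes, at 12.48, 16.70, 16.47 and 15.93 RPKM. Hepatocyte-derived ductal libraries had 37.86, 38.09, 36.04, 37.19 and 33.46. Cholangiocyte-derived ones had 45.55, 41.92, 46.44, 37.47 and 41.79. Both ductal groups lay above all hepatocyte libraries, by 2.37-fold and 2.77-fold, whereas the ductal groups overlapped through cholangiocyte-derived library 225. The difference from hepatocytes was 1.20 in hepatocyte-derived cells (SE 0.0904, adjusted p = 1.7e-08) and fell to 0.43 after rescaling by median ratios (adjusted p = 0.00115). Between the ductal groups it was -0.22 (SE 0.0853, adjusted p = 0.0645), and it passed the threshold without hepatocyte library 118 (-0.22, adjusted p = 0.0125) and without cholangiocyte-derived library 225 (-0.26, adjusted p = 0.0336).

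Itpr3, the IP3 receptor that lies near the apical pole of cholangiocytes and releases calcium for secretion, also formed 3 steps (NM_080553, chromosome 17, 27194249 to 27259168, plus strand). Its level was 15.76, 17.43, 18.63, 17.56 and 17.48 RPKM in hepatocyte-derived libraries. In cholangiocyte-derived libraries it was 32.20, 26.00, 32.06, 28.63 and 28.29. Hepatocytes had 1.91, 4.06, 3.88 and 3.22. No library of one group reached another group. The difference was 2.14 between hepatocyte-derived cells and hepatocytes (SE 0.136, adjusted p = 3.16e-09) and -0.73 between the ductal groups (SE 0.128, adjusted p = 0.000405), a 1.69-fold excess of cholangiocyte-derived cells.

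The choice between IP3 receptor genes differed between groups as well. Itpr1 and Itpr2, the other two receptor genes, had mean levels of 15.4 and 12.6 RPKM in hepatocyte-derived cells, 11.8 and 11.2 in cholangiocyte-derived cells and 8.43 and 6.15 in hepatocytes. Itpr3 made up 35.2, 41.3, 37.9, 37.4 and 40.2% of the summed level of all IP3 receptor genes in hepatocyte-derived libraries. The share was 57.5, 56.5, 56.7, 60.5 and 50.2% in cholangiocyte-derived libraries and 18.1, 19.3, 19.1 and 16.5% in hepatocytes. In each pair of groups the shares did not overlap (exact permutation test, two-sided, p = 0.00794, the smallest these groups can give, adjusted p = 0.00952 over 6 tests of this kind). By group means of RPKM, Itpr3 was the most abundant of the IP3 receptor genes in both ductal groups and the least abundant in hepatocytes. Itpr1 and Itpr2 did not pass the test between the ductal groups (0.38, adjusted p = 0.0911, and 0.15, adjusted p = 0.484). Itpr1 was called higher in hepatocyte-derived cells without cholangiocyte-derived library 611 (0.49, adjusted p = 0.0266) and without hepatocyte library 118 (0.38, adjusted p = 0.0184), and also after quantile normalization, with library weights, in a fit of the ductal groups alone and with the column naming style as a covariate (0.36 to 0.47).

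**Figure D2:**
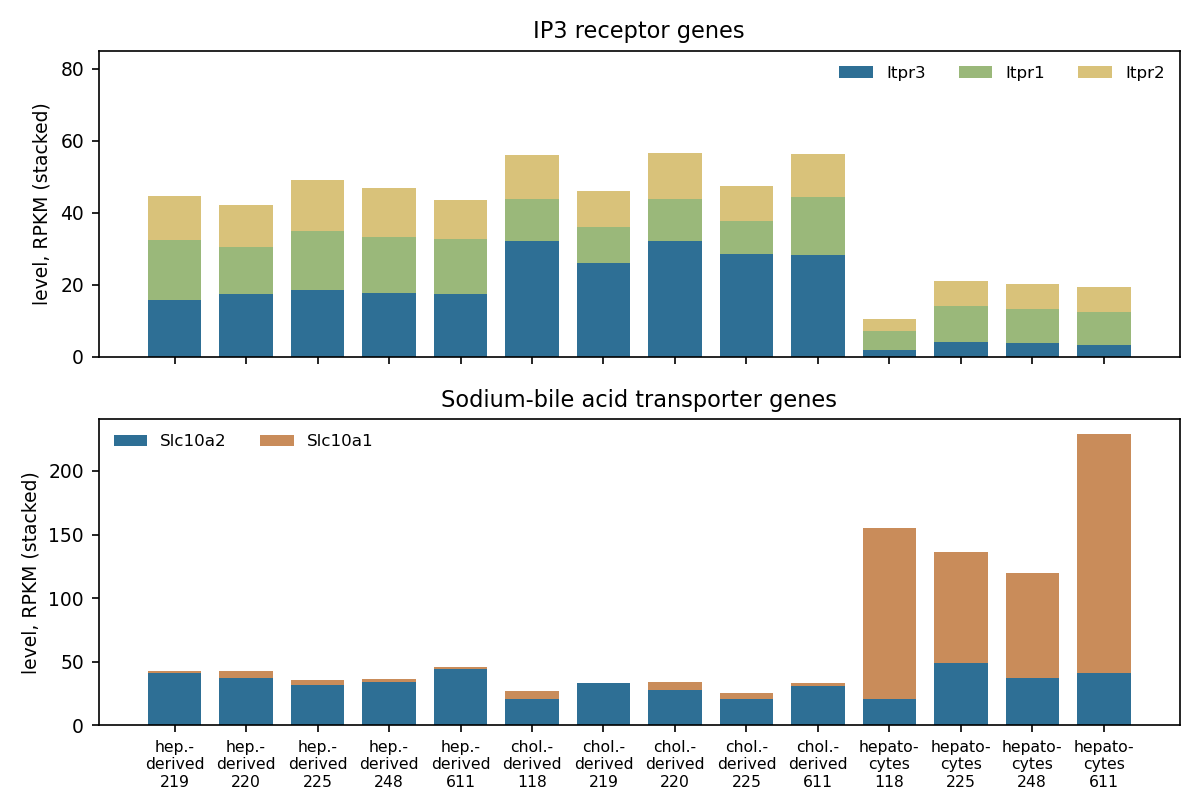
Stacked RPKM per library of Itpr3, Itpr1 and Itpr2 (upper panel) and of Slc10a2 and Slc10a1 (lower panel), each bar 1 library, from hepatocyte-derived through cholangiocyte-derived to hepatocytes. Itpr3 fills 50.2 to 60.5% of the bar in cholangiocyte-derived libraries and 16.5 to 19.3% in hepatocytes, while Slc10a1 fills most of the bar only in the 4 hepatocyte libraries.

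Ano1, the calcium-activated chloride channel TMEM16A, had the widest gap between the ductal groups among the 9 genes (NM_178642, chromosome 7, 151774556 to 151924383, minus strand). Cholangiocyte-derived ductal libraries had 115.37, 110.37, 122.01, 138.15 and 111.81 RPKM. Hepatocyte-derived ones had 5.83, 5.44, 1.31, 2.47 and 8.57. Hepatocytes had 1.56, 0.01, 0.02 and 0.15. Every cholangiocyte-derived value was far above every other, a 25.3-fold excess over hepatocyte-derived cells (difference -4.56, SE 0.345, adjusted p = 1.35e-07). Ano1 was 1.94 higher in hepatocyte-derived cells than in hepatocytes (SE 0.365, adjusted p = 0.000189), but those groups overlapped, because hepatocyte library 118 exceeded hepatocyte-derived library 225. Without library 118 the difference was 2.26. The genes most like Ano1 over the 14 libraries were Degs2, Gabrp and Aif1l (Pearson r = 0.997, 0.996 and 0.995). Gabrp, a subunit of GABA-gated chloride channels, had 5.17 ± 2.24, 173 ± 49.1 and 0.592 ± 1.01 RPKM (SD) in hepatocyte-derived, cholangiocyte-derived and hepatocyte libraries.

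Gpbar1, the bile acid receptor TGR5 that raises cyclic AMP, was close to the limit of detection (NM_174985, chromosome 1, 74325174 to 74326163, plus strand). Cholangiocyte-derived libraries had 0.49, 0.04, 0.25, 0 and 0.07 RPKM, or an estimated 12.7, 1.07, 6.91, 0 and 2.09 reads over a row of 990 nt. Hepatocyte-derived ductal libraries had 0.04 in library 220, about 1 read, and 0 in the other 4. Hepatocytes had 0.07 in library 118 and 0 in the other 3. The highest values were thus in cholangiocyte-derived libraries 118 and 220, which also held the most stellate and macrophage transcripts of that group (macrophage markers 426 and 292 RPKM against 50.3 to 237 in the other 3). Hepatocyte library 118 had macrophage markers at 1479 RPKM and Gpbar1 at 0.07 RPKM, an estimated 1.84 reads. The part of other cells in these values was not tested. Fitted without the filter, the difference between the ductal groups was -0.20 (adjusted p = 0.103), so no difference was detectable at this depth.

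Aqp1, a water channel of cholangiocytes that is also abundant in endothelium, varied more within groups than between them (NM_007472, chromosome 6, 55286293 to 55298549, plus strand). Hepatocyte-derived ductal libraries had 0.77, 11.17, 17.33, 16.11 and 11.26 RPKM. Cholangiocyte-derived ones had 50.35, 3.02, 31.42, 19.96 and 22.28. Hepatocytes had 88.28, 0.94, 1.59 and 3.91. The highest value of all was in hepatocyte library 118, and library 219 was lowest in both ductal groups. All 3 groups overlapped, and no comparison passed the test: 0.49 (SE 1.06, adjusted p = 0.685) for hepatocyte-derived cells against hepatocytes, 1.55 (SE 1.06, adjusted p = 0.185) for cholangiocyte-derived ones and -1.06 (SE 1.0, adjusted p = 0.457) between the ductal groups.

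The level of Aqp1 moved with endothelial and macrophage markers. The summed level of 10 endothelial markers (Clec4g the most abundant, none at 0 throughout a group) was 19.2, 42.6, 52.9, 53.2 and 45.9 RPKM in hepatocyte-derived libraries. It was 142, 21.3, 98.2, 56.9 and 64.8 in cholangiocyte-derived libraries and 221, 5.35, 7.63 and 15 in hepatocytes. Library 219 was the lowest of its group for this sum in both ductal groups, and library 118 was the highest in cholangiocyte-derived cells and in hepatocytes, as for Aqp1. The same held for the 11 macrophage markers, at 25.5 and 50.3 RPKM in the libraries numbered 219 of the ductal groups and at 426 and 1479 in cholangiocyte-derived and hepatocyte library 118. The genes most like Aqp1 over the 14 libraries were the lectin genes Mrc1 and Clec4g, known from liver sinusoidal endothelium (both Pearson r = 0.990) and Arhgdib, a leukocyte-rich GDP dissociation inhibitor (0.989). The part of endothelial or macrophage RNA in the Aqp1 values was not tested. Without hepatocyte library 118 Aqp1 was 2.79 higher in cholangiocyte-derived cells than in hepatocytes (adjusted p = 0.00589), and 2.10 higher without all 3 libraries with other cells (adjusted p = 0.0419). With the library number as a block the same difference was 2.09 (adjusted p = 0.0123), and that of hepatocyte-derived cells against hepatocytes was 1.66 (adjusted p = 0.0368). Library weights gave 3.33 for cholangiocyte-derived cells (adjusted p = 0.000255) and 2.35 for hepatocyte-derived cells (adjusted p = 0.00278), each against hepatocytes.

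**Figure D3:**
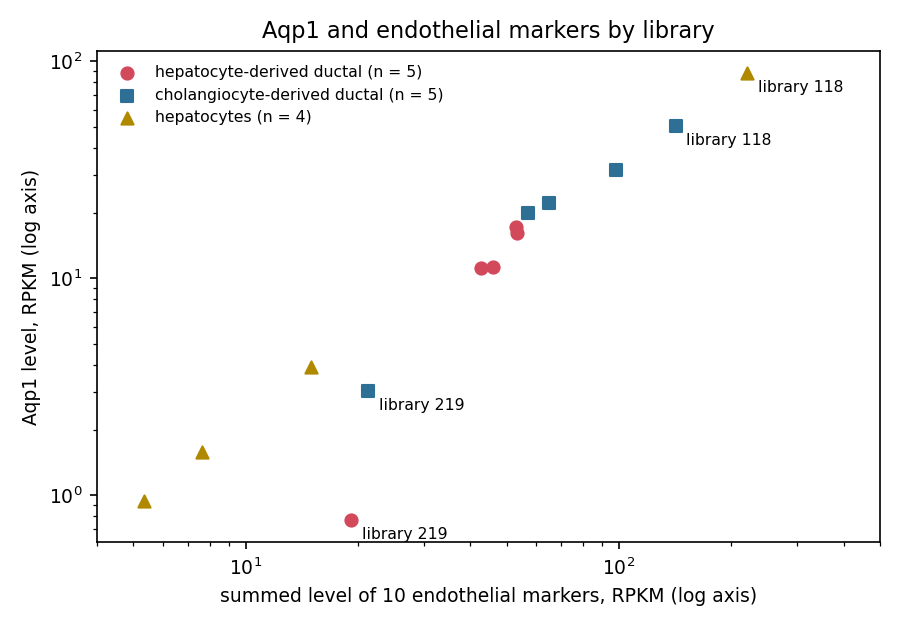
Aqp1 level (RPKM, log axis) against the summed level of 10 endothelial markers (RPKM, log axis), each point 1 library in the colour of its group. Hepatocyte library 118 lies at the upper right with 88.28 RPKM of Aqp1 and 221 RPKM of markers, and the libraries numbered 219 have the lowest Aqp1 of both ductal groups.

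Slc10a2 encodes ASBT, the apical sodium-dependent carrier that takes bile acids up from the duct lumen (NM_011388, chromosome 8, 5085623 to 5105232, minus strand). Its transcript was present in hepatocytes, at 20.43, 49.40, 36.91 and 41.11 RPKM, as well as in ductal cells. Hepatocyte-derived ductal libraries had 41.52, 37.01, 32.08, 34.24 and 44.66. Cholangiocyte-derived ones had 20.73, 33.23, 27.47, 20.49 and 31.20. The lowest hepatocyte value was in library 118 and the groups overlapped in every comparison. The mean was 37.9 ± 5.17 RPKM in hepatocyte-derived cells, 26.6 ± 5.87 in cholangiocyte-derived cells and 37.0 ± 12.2 in hepatocytes (SD).

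None of the differences of Slc10a2 passed the threshold with the deposited scaling. The difference was 0.09 between hepatocyte-derived cells and hepatocytes (SE 0.218, adjusted p = 0.711), -0.42 between cholangiocyte-derived cells and hepatocytes (SE 0.218, adjusted p = 0.0871) and 0.51 between the ductal groups (SE 0.205, adjusted p = 0.0677). Without hepatocyte library 118 Slc10a2 was called lower in cholangiocyte-derived cells than in hepatocytes (-0.67, adjusted p = 0.00177) and higher in hepatocyte-derived than in cholangiocyte-derived cells (0.51, adjusted p = 0.0101). Without cholangiocyte-derived library 219 the ductal groups differed by 0.59 (adjusted p = 0.0461). The library number as a block gave -0.52 for cholangiocyte-derived cells against hepatocytes (adjusted p = 0.0172). Leaving out all 3 libraries with transcripts of other cells gave -0.59 for that comparison (adjusted p = 0.00992). Rescaled by median ratios, Slc10a2 was lower in both ductal groups than in hepatocytes (-0.69, adjusted p = 0.0112, and -1.23, adjusted p = 0.000134).

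The hepatocyte bile acid carrier Slc10a1 (NTCP), its paralog, was by contrast lower in both ductal groups. Its level was 1.13, 5.83, 3.34, 2.47 and 1.25 RPKM in hepatocyte-derived libraries, and 6.62, 0.47, 6.61, 5.34 and 2.36 in cholangiocyte-derived ones. Hepatocytes had 134.52, 86.60, 82.90 and 187.98. The fall was 43.9-fold in hepatocyte-derived cells (difference -5.08, adjusted p = 1.89e-07) and 28.7-fold in cholangiocyte-derived ones (-4.71, adjusted p = 3.36e-07). Slc10a2 therefore made up 93.0 ± 4.66% of the summed level of both carriers in hepatocyte-derived cells, 85.5 ± 9.8% in cholangiocyte-derived ones and 24.6 ± 10.8% in hepatocytes (SD). The share differed between each ductal group and hepatocytes (exact permutation test, two-sided, adjusted p = 0.00952) and not detectably between the ductal groups (7.51 percentage points, exact permutation test, adjusted p = 0.167). Without cholangiocyte-derived library 219 the last difference was 10.8 points (exact permutation test, adjusted p = 0.0476).

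Slc5a1 encodes SGLT1, the sodium-glucose carrier that reclaims glucose from bile (NM_019810, chromosome 5, 33446868 to 33505348, plus strand). Its level was 47.88, 55.29, 77.82, 78.40 and 42.76 RPKM in hepatocyte-derived libraries. In cholangiocyte-derived ones it was 71.62, 69.45, 74.86, 73.69 and 79.98. Hepatocytes had 2.73, 2.71, 4.10 and 4.48. Both ductal groups were well above hepatocytes, by 17.2-fold (difference 3.75, SE 0.178, adjusted p = 2.03e-10) and 21.1-fold (4.08, SE 0.178, adjusted p = 4.03e-11). The ductal groups overlapped: hepatocyte-derived libraries 225 and 248 lay within the cholangiocyte-derived range and the other 3 below it, and the difference of -0.33 did not pass the test (SE 0.168, adjusted p = 0.15). Of its facilitative partners, Slc2a1 (GLUT1) was 23.1 ± 2.13, 69.0 ± 10.7 and 12.8 ± 0.858 RPKM (SD) in hepatocyte-derived, cholangiocyte-derived and hepatocyte libraries, lower in the first than in the second (-1.53, adjusted p = 4.9e-08). Slc2a2 (GLUT2, the hepatocyte glucose carrier) was 1.04 higher in hepatocyte-derived than in cholangiocyte-derived cells (adjusted p = 0.000368), at 112 ± 32.2, 53.5 ± 10.2 and 173 ± 16.7 RPKM.

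For the 6 genes called in both comparisons with hepatocytes, hepatocyte-derived means lay at different points between the other groups. Each hepatocyte-derived library was placed on the line from the hepatocyte mean (0%) to the cholangiocyte-derived mean (100%) on the log2(RPKM + 1) scale. The mean position was 92.0 ± 9.67% for Slc5a1, 84.8 ± 5.25% for Slc4a2 and 74.6 ± 2.87% for Itpr3. It was 70.9 ± 14.2% for Sctr, 62.2 ± 7.42% for Cftr and 29.9 ± 12.7% for Ano1 (SD, 5 libraries). Positions of Slc5a1 and Slc4a2 overlapped over the libraries (81.0 to 102 and 76.2 to 89.1%), as did those of Itpr3, Sctr and Cftr in part. The range of Ano1, 12.4 to 43.9%, lay under that of every other gene, the nearest being Cftr at 53.3 to 72.7%. Slc5a1 had the highest mean position and Ano1 the lowest under each of the other settings tried, but the order between them did not hold: after rescaling by median ratios Slc4a2, Sctr and Itpr3 stood at 70.6, 70.0 and 68.1%, and with quantile normalization at 75.0, 67.6 and 62.4%. The pseudocount moved Ano1 from 17.6% (pseudocount 5) to 44.2% (pseudocount 0.1) and Cftr from 48.5 to 73.2%. Aqp1 and Slc10a2 were not placed, because their hepatocyte and cholangiocyte-derived means did not differ by the test.

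The order of the libraries was not the same from gene to gene. Libraries 225 and 248 were highest for Sctr (81.5 and 89.7%) and Slc5a1 (both 102%), and the same libraries were lowest for Ano1 (12.4 and 21.4%). Library 611 was highest for Ano1 (43.9%) and Cftr (72.7%) and lowest for Sctr (56.3%), Slc5a1 (81.0%) and Slc4a2 (76.2%). Summed hepatocyte markers were 7800.2 and 6540.2 RPKM in libraries 225 and 248 and 8236 in library 611, within the range of 5696 to 10883 for the group. The part of hepatocyte RNA in the intermediate levels was not tested.

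**Figure D4:**
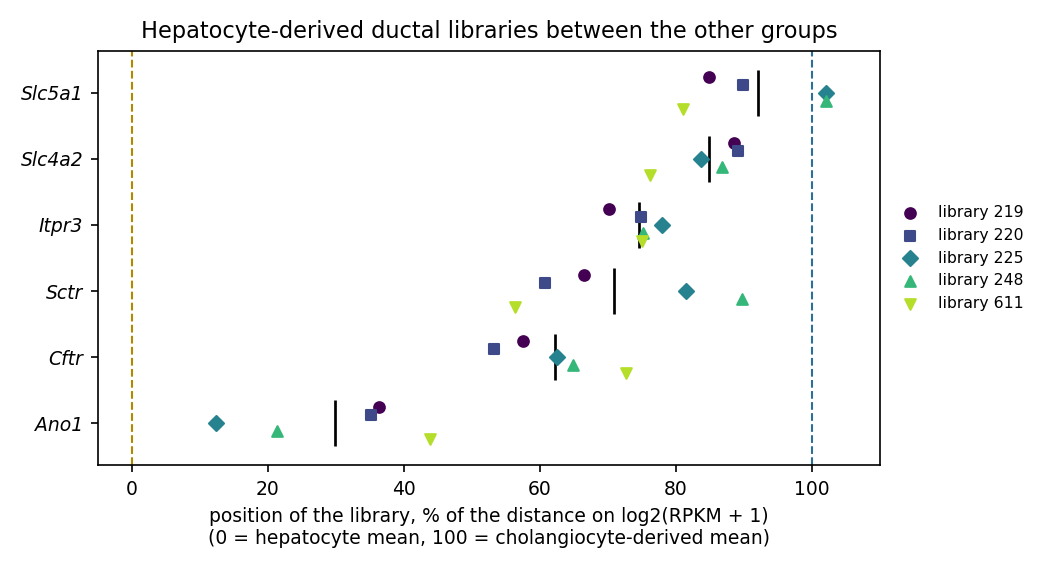
Position of each hepatocyte-derived library between the hepatocyte mean (0%) and the cholangiocyte-derived mean (100%) on the log2(RPKM + 1) scale; symbols are libraries and bars are means over the 5. Slc5a1 lies nearest to the cholangiocyte-derived mean at 92.0% and Ano1 nearest to the hepatocyte mean at 29.9%, with libraries 225 and 248 at opposite ends for Sctr and Ano1.

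Around these 9 genes, 102 further genes of bile secretion and transport were collected in 8 lists, of which 82 passed the filter. In hepatocyte-derived cells 51 were higher and 16 lower than in hepatocytes (median 0.66, all genes 0.67). In cholangiocyte-derived cells 57 were higher and 19 lower (median 1.02, all genes 0.76), and between the ductal groups 17 were higher and 36 lower in hepatocyte-derived cells (median -0.19, all genes -0.03), where 15.1% of all genes were called higher and 21.0% lower. The shares called higher against hepatocytes were thus near the background of 66.2% and 67.1%, where 14.8% and 17.4% of all genes were called lower. After rescaling by median ratios the counts against hepatocytes were 30 higher and 24 lower, and 40 higher and 28 lower, of 81 tested. The counts of each list below without rescaling are to be set beside the shares of all genes given here for each comparison. Rescaled counts belong beside those of all 12540 genes tested after rescaling. There, 4670 were higher and 4613 lower in hepatocyte-derived cells than in hepatocytes, and 5050 higher and 4821 lower in cholangiocyte-derived cells. All list counts are descriptions, since no list was tested as a set.

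Of the 12 tested chloride and potassium channel genes and their partners, 11 were higher and 1 lower than hepatocytes in each ductal group (rescaled, 7 and 1 in hepatocyte-derived and 8 and 3 in cholangiocyte-derived cells). Set against cholangiocyte-derived cells, 3 were higher and 6 lower in hepatocyte-derived ones. The calcium-activated potassium channel Kcnn4, which helps to hold the voltage that drives chloride out, had 6.45 ± 2.15 RPKM in hepatocyte-derived cells against 99.3 ± 13 in cholangiocyte-derived ones (SD, difference -3.78, adjusted p = 4.87e-08). The voltage-gated potassium channel Kcnq1 had 1.69 ± 1.11 against 59.9 ± 16.7 (-4.56, adjusted p = 7.48e-08). Slc12a2, the basolateral NKCC1 carrier that loads chloride into the cell, had 8.76 ± 2.83 against 58.5 ± 11 (-2.63, adjusted p = 1.66e-08). Ano6, a lipid scramblase and channel of the ANO family, was closer, at 53.1 ± 6.07 against 72.6 ± 2.19 RPKM and 6.58 ± 1.48 in hepatocytes.

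In the secretin and cyclic AMP list, 8 of 11 tested genes were higher and none lower than hepatocytes in each ductal group, and after rescaling 4 were higher and 2 lower in hepatocyte-derived and 4 higher and 4 lower in cholangiocyte-derived cells. In the contrast of both ductal groups, 1 was higher and 5 lower in hepatocyte-derived cells. The adenylyl cyclase Adcy6 had 27.3 ± 1.06, 50.5 ± 5.73 and 9.05 ± 2.87 RPKM (SD) in hepatocyte-derived, cholangiocyte-derived and hepatocyte libraries. Prkar2b, a regulatory subunit of protein kinase A, had 0.638 ± 0.239, 5.99 ± 0.456 and 0.07 ± 0.0757.

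Of the 15 calcium and purinergic genes, 11 were higher and 2 lower in hepatocyte-derived cells than in hepatocytes, and 12 higher and 3 lower in cholangiocyte-derived ones (rescaled, 5 and 3, and 8 and 3). Compared with cholangiocyte-derived cells, 3 were higher and 5 lower in hepatocyte-derived ones. P2ry2, a receptor for ATP and UTP, moved in opposite directions: 2.24 ± 0.743 RPKM in hepatocyte-derived cells was below hepatocytes at 6.58 ± 0.393 (difference -1.25, adjusted p = 4.9e-06), and 27.9 ± 4.85 in cholangiocyte-derived cells was above them (1.91, adjusted p = 4.08e-08). Trpv4, a calcium channel opened by low osmolality, had 3.54 ± 1.2, 22.1 ± 4.29 and 1.39 ± 0.532 RPKM. Pkd2, the ciliary cation channel polycystin-2, had 66.8 ± 4.15 and 60.3 ± 5.04 in the ductal groups against 9.21 ± 2.76 in hepatocytes.

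Of the 10 tested genes of bicarbonate, proton and sodium transport, 7 were higher and 2 lower than hepatocytes in each ductal group (rescaled, 5 and 2 in hepatocyte-derived and 6 and 3 in cholangiocyte-derived cells). Set against cholangiocyte-derived cells, 1 was higher and 6 lower in hepatocyte-derived ones. Car2, the cytosolic carbonic anhydrase that supplies bicarbonate, was at 9.68 ± 3.16 RPKM in hepatocyte-derived cells, against 7.30 ± 1.75 in hepatocytes (0.34, adjusted p = 0.152) and 131 ± 27.1 in cholangiocyte-derived cells (-3.65, adjusted p = 5.3e-09). The first difference passed the test with the library number as a block (0.53, adjusted p = 0.0262) and with library weights (0.46, adjusted p = 0.0178), and over all settings Car2 ranged from -0.48 to 0.53. The single gene that was higher was Slc4a4, the sodium-bicarbonate cotransporter, at 113 ± 18.3 RPKM against 55.4 ± 7.66 in cholangiocyte-derived cells and 56.3 ± 25 in hepatocytes, named after its values were seen. Slc4a3, the anion exchanger AE3 and a paralog of Slc4a2, had 10.1 ± 0.896, 31.1 ± 4.29 and 0.095 ± 0.104 RPKM.

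All 9 genes of apical anchoring and regulation were tested, with 7 higher and none lower in hepatocyte-derived cells than in hepatocytes and 7 higher and 1 lower in cholangiocyte-derived ones (rescaled, 5 and 2, and 5 and 3). In the contrast of both ductal groups, 1 was higher and 5 lower in hepatocyte-derived cells. Ezr, ezrin, which ties apical proteins to the actin cortex, had 70.1 ± 12.9, 282 ± 18.8 and 7.12 ± 2.59 RPKM. The scaffold Pdzk1 went the other way, at 39.0 ± 8.18 RPKM against 7.03 ± 2.9 in cholangiocyte-derived cells and 48.4 ± 4.03 in hepatocytes. Its difference of -0.32 between hepatocyte-derived cells and hepatocytes did not pass the test (adjusted p = 0.173), but did after rescaling by median ratios (-1.11, adjusted p = 0.000183), with quantile normalization (-0.50, adjusted p = 0.0444), with library weights (-0.49, adjusted p = 0.00994) and with the library number as a block (-0.50, adjusted p = 0.0185).

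Of the 4 other water channel genes that were tested, 3 were lower in hepatocyte-derived cells than in hepatocytes, and in cholangiocyte-derived cells 3 were lower and 1 higher. Aqp8, of the hepatocyte canaliculus, was at 4.93 ± 2.62, 7.10 ± 4.67 and 251 ± 38 RPKM. The aquaglyceroporin Aqp9 was at 42.8 ± 6.72, 8.75 ± 3.64 and 168 ± 33.1 RPKM and was higher in hepatocyte-derived than in cholangiocyte-derived cells (2.27, adjusted p = 1.22e-05). Aqp5, a secretory gland water channel, was at 6.77 ± 2.28 RPKM in cholangiocyte-derived cells and at 0.110 ± 0.0982 in hepatocyte-derived ones (-2.76, adjusted p = 1.8e-08). Beside the Aqp1 values, 2 of the 4 were thus higher and 1 lower in hepatocyte-derived than in cholangiocyte-derived cells.

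Of the 11 tested genes of bile acid handling and sensing, 1 was higher and 5 lower in hepatocyte-derived cells than in hepatocytes, and 3 were higher and 7 lower in cholangiocyte-derived ones (rescaled, 1 and 8, and 2 and 7). Compared with cholangiocyte-derived cells, 4 were higher and 3 lower in hepatocyte-derived ones. The canalicular bile salt export pump Abcb11 fell with Slc10a1, from 191 ± 92.0 RPKM in hepatocytes to 4.56 ± 2.09 and 3.85 ± 2.54. Nr1h4, the nuclear bile acid receptor FXR, was at 60.0 ± 15.9, 26.6 ± 7.49 and 78.0 ± 22.5 RPKM and was 1.15 higher in hepatocyte-derived than in cholangiocyte-derived cells (adjusted p = 0.000974). Against hepatocytes Nr1h4 in hepatocyte-derived cells passed the test with the library number as a block (-0.47, adjusted p = 0.00108) and after rescaling (-1.17, adjusted p = 0.000454), in place of -0.37 (adjusted p = 0.166). Ostb, a subunit of the basolateral bile acid exporter, was at 4.27 ± 1.24, 1.33 ± 0.506 and 15.8 ± 3.28 RPKM. The other subunit, Osta, was at 0 except for a mean of 0.022 RPKM in cholangiocyte-derived cells, and Fabp6, a cytosolic bile acid carrier, was listed at 0 in every library. Both were named after their values were seen.

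Of the 10 genes of glucose and solute uptake, 6 were higher and 3 lower in hepatocyte-derived cells than in hepatocytes, and 8 were higher and 2 lower in cholangiocyte-derived ones (rescaled, 3 and 3, and 6 and 2). Set against cholangiocyte-derived cells, 2 were higher and 5 lower in hepatocyte-derived ones. The peptide carrier Slc15a2 had 0.494 ± 0.238 RPKM in hepatocyte-derived and 23.8 ± 5.15 in cholangiocyte-derived cells (-4.04, adjusted p = 1.72e-09). Those values are of its row with the highest mean alone. With all rows of the symbol summed, Slc15a2 was called higher in hepatocyte-derived cells than in hepatocytes (1.37, adjusted p = 0.000286), in place of 0.31 (adjusted p = 0.183). Slc5a2, the second sodium-glucose carrier SGLT2, had 8.66 ± 0.437, 8.41 ± 0.63 and 4.25 ± 0.525 RPKM. Its differences from hepatocytes, 0.88 in hepatocyte-derived and 0.84 in cholangiocyte-derived cells, depended on the scaling. With quantile normalization they were -0.07 (adjusted p = 0.439) and -0.21 (adjusted p = 0.0208). Rescaled by median ratios, the cholangiocyte-derived difference was 0.13 (adjusted p = 0.108).

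**Figure D5:**
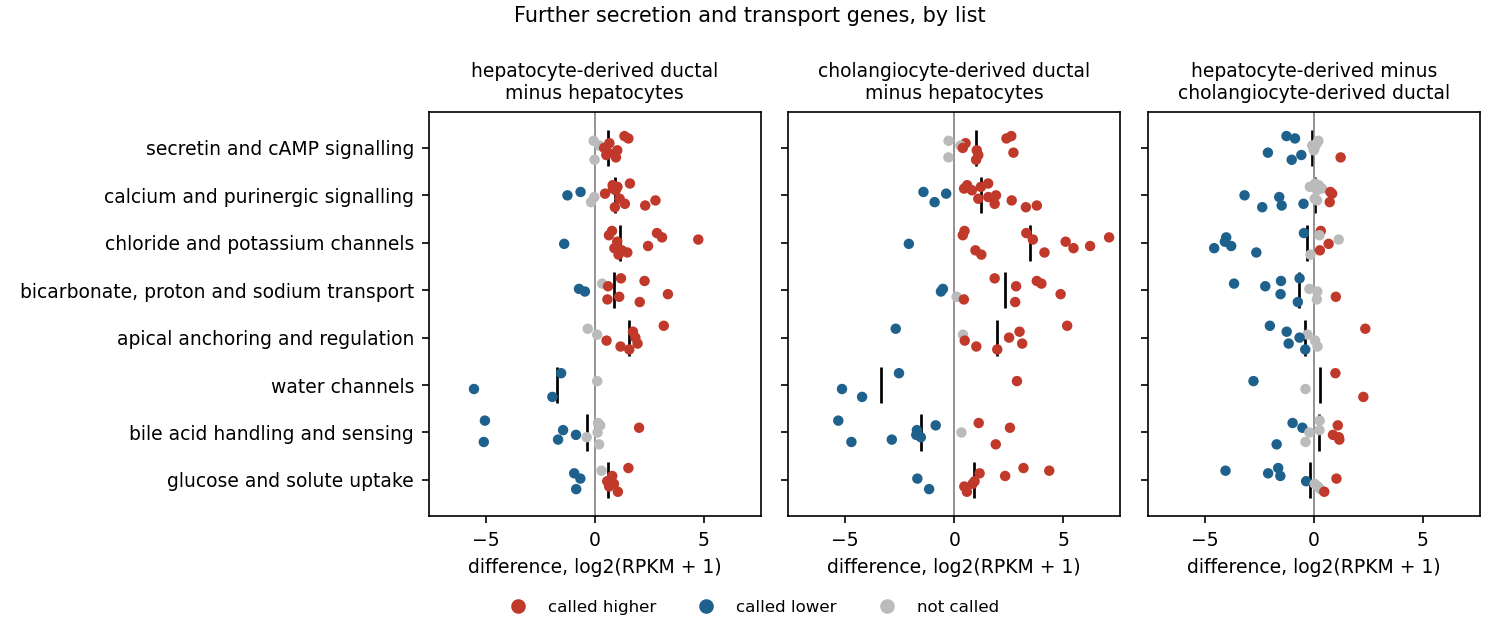
Difference of each tested gene of the 8 further lists on the log2(RPKM + 1) scale, one panel per comparison; points are genes, coloured by whether they were called higher, called lower or not called, and vertical bars are list medians. Water channel and bile acid genes lie lowest against hepatocytes, and the right panel holds 36 genes called lower and 17 called higher in hepatocyte-derived cells.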

How the data were processed

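Polyadenylated RNA of sorted liver cells was measured in 14 libraries, prepared from 75 to 200 ng of total RNA with the Illumina TruSeq RNA kit version 2, per the labels' protocols. The kit does not mark the strand, and no other gene of the table overlaps any of the 9 genes. The authors deposited a table of RPKM values, 1 column per library. The submitters' processing notes name the mm9 build, Bowtie 0.12.7 and CASAVA. How reads were counted is not given in the sources used here. Of the columns, 2 are numbered 220 where titles carry 120. Only their group was taken as known, and 220 is used as their number. All 4 hepatocyte columns were used, where the series text counts 3 such samples.

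Each symbol was represented by its row with the highest mean. The test was limma 3.58.1 (R 4.3.3, mean-variance trend) on log2(RPKM + 1), in a fit of the 3 groups to all 14 libraries, two-sided, with Benjamini-Hochberg adjustment over the 12638 symbols that reached 1 RPKM in 4 or more libraries. This scale understates changes of low genes. Depth was estimated from the steps between low values of single-exon rows, since RPKM keeps no totals. Shares of paralogs were compared by exact permutation tests, adjusted over 6 tests. Tables, motif searches and plots used Python 3.11.15, numpy 2.4.6, pandas 2.3.3 and matplotlib 3.10.9. On simulated data for the comparison between the ductal groups (12638 genes, 200 changed per fold size), 91% of genes changed 2-fold and 0.199% of unchanged genes were called. Changed genes were drawn only from those with a higher mean level, so the 91% does not cover low genes. The simulated noise was normal and independent between libraries.

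The 9 genes, the 8 lists of further genes and the 7 marker lists were chosen with earlier results of these data known. The genes named are the 9, their partners Itpr1, Itpr2, Slc10a1, Slc2a1 and Slc2a2, up to 3 genes per list and comparison with the smallest adjusted p among those reaching 5 RPKM in the higher group, the 3 genes most correlated with a member and the most abundant marker of a list. Not every gene that the rule takes is printed. The main fit did not pair samples, and the library number entered only as a block in an alternative fit. Deviations from the group mean correlated by 0.212 to 0.797 in the 4 pairs of equal number between the ductal groups. The 21 pairs of unequal number gave -0.564 to 0.464. For cholangiocyte-derived cells and hepatocytes, 3 pairs of equal number gave 0.133 to 0.512 and 17 of unequal number -0.467 to 0.458. For hepatocyte-derived cells and hepatocytes, 3 pairs of equal number gave 0.0208 to 0.193 and 17 of unequal number -0.357 to 0.437. The ranges overlapped in each case, although every pair of equal number had a positive correlation. The labels do not say what a number marks. Alternatives tried were other pseudocounts, filters, scalings, fits, library weights, summed rows, a block for the number, and leaving out libraries. For the positions between groups they were added after the data were seen.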

Additional observations from a re-analysis of the deposited data

Results flagged for a closer look

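Among the 27 groups of 4 or 5 libraries examined for a single library far from the rest (9 genes in 3 groups), 6 had one. Chance gives about 1 in 20, but the 2 cases of Gpbar1, each a single value above 0 among zeros, cannot be set against that rate. In hepatocytes it was library 118 in 4 cases. Cftr stood at 0.64 RPKM there against 0 to 0.05 in the other 3 libraries, Ano1 at 1.56 against 0.01 to 0.15, Aqp1 at 88.28 against 0.94 to 3.91, and Gpbar1 at 0.07 against 0. The same library held macrophage markers at 1479 RPKM, endothelial markers at 221 and biliary markers at 1429, the last against 613 to 1003 in the other hepatocyte libraries, and their part in these values was not tested. Sctr stood at 56.73 RPKM in cholangiocyte-derived library 225 against 32.77 to 37.63 in the other 4. Gpbar1 stood at 0.04 RPKM in hepatocyte-derived library 220, about 1 read, against 0 in the other 4.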

How the results depend on the processing

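The 6 genes higher in both ductal groups and the 4 lower in hepatocyte-derived than in cholangiocyte-derived cells kept those calls under every alternative. Other calls moved. Slc10a2 was the 1 member called lower in cholangiocyte-derived cells than in hepatocytes under median-ratio rescaling, quantile normalization, library weights, the replicate block, and without hepatocyte library 118 or all 3 libraries with other cells, and it was the 1 called lower in hepatocyte-derived cells under median-ratio rescaling. Between the ductal groups 1 member, Slc10a2, was called higher in a fit of these groups alone, with library weights, with quantile normalization, with the column naming style as a covariate (chosen after the data were seen), and without hepatocyte library 118 or cholangiocyte-derived library 219. Against hepatocytes, hepatocyte-derived cells had Slc10a2 at -0.69 (median ratios), -0.21 (quantile), -0.26 (weights), -0.12 (block) and -0.16 (without library 118 or the 3 libraries) in place of 0.09, and Aqp1 at -0.13 (median ratios), -0.24 (quantile) and -0.12 (without hepatocyte library 225) in place of 0.49. Over single left-out libraries these ranged from -0.16 to 0.25 for Slc10a2 and from -0.12 to 1.73 for Aqp1, and Aqp1 was 1.66 with the block (adjusted p = 0.0368) and 2.35 with weights (adjusted p = 0.00278). Slc4a2 (-0.22, adjusted p = 0.0645) was called lower in hepatocyte-derived than in cholangiocyte-derived cells with a pseudocount of 5, quantile normalization, a fit of these groups alone, library weights, the column naming style as a covariate, and without cholangiocyte-derived library 225 or hepatocyte library 118 (-0.26 to -0.19). The cause was not tested. Of the 8 tested members, the replicate block changed calls of Slc10a2 and Aqp1 alone. It also changed calls of further genes, among them Car2, Pdzk1 and Nr1h4 in hepatocyte-derived cells against hepatocytes.

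Leaving out 1 library at a time, 6 to 7 members were higher and 0 to 1 lower in cholangiocyte-derived cells than in hepatocytes, and 6 higher and 0 lower in hepatocyte-derived cells. Between the ductal groups 0 to 1 were higher and 4 to 5 lower. These fits tested 12531 to 12615 genes. Of all genes, 8260 to 8789 were higher and 2061 to 2196 lower in cholangiocyte-derived cells than in hepatocytes. In hepatocyte-derived cells 8152 to 8682 were higher and 1750 to 1884 lower, and between the ductal groups 1603 to 2385 were higher and 2299 to 3296 lower. The Itpr3 share differed by 37.0 to 39.5, 19.4 to 20.9 and -19.4 to -16.8 points, and the Slc10a2 share by 57.1 to 64.8, 64.6 to 72.3 and 5.1 to 10.8, for cholangiocyte-derived cells against hepatocytes, hepatocyte-derived cells against hepatocytes and the ductal groups. Without the 3 libraries, cholangiocyte-derived cells and hepatocytes differed by 37.4 (Itpr3) and 61.9 points (Slc10a2), with an adjusted p of 0.12 by the exact permutation test, which 3 against 3 libraries cannot bring under the threshold.

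Of all genes, 8363 were higher and 1873 lower in hepatocyte-derived cells than in hepatocytes, 4670 and 4613 after median-ratio rescaling, and 4762 and 4065 after quantile normalization. For cholangiocyte-derived cells the counts were 8475 and 2195, 5050 and 4821, and 4938 and 4741. Between the ductal groups 1913 were higher and 2657 lower, 2987 and 3924 with library weights, and 3017 and 2317 after quantile normalization. Depth limits Gpbar1, where 1 read is worth 0.0303 to 0.0424 RPKM.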
